A study of Mus musculus with 4 samples.

Results

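Transcripts of 9 genes of the Hedgehog pathway were measured in RNA of whole ICR mouse embryos, in a study of embryos lacking the RNA helicase Ddx6. The genes were taken by symbol from the table of raw counts, which holds 24421 genes. They are the ligand gene Ihh, the receptor genes Ptch1 and Boc, the transducer gene Smo, the decoy receptor gene Hhip, the transcription factor genes Gli1, Gli2 and Gli3, and the target gene Foxf1. All 9 were in the table and passed the minimum of 10 counts in at least 1 library, as did 14393 genes in all. There was 1 library of wild-type embryos at embryonic day 7.5 (WT E7.5), 1 of wild-type embryos at embryonic day 8.5 (WT E8.5), and 2 of Ddx6 -/- embryos at embryonic day 8.5 (KO1 and KO2). The mutants came from crosses of heterozygotes whose Ddx6 allele had lost a floxed exon through a ubiquitously driven Cre. Embryos were pooled within the KO libraries. By the study's account KO1 mixed embryos from before and after head-fold formation, whereas KO2 held embryos from before that stage alone. Morphological stage and library therefore cannot be told apart in the KO pair. The study describes its E8.5 mutants as delayed in development. Genotype and developmental stage therefore cannot be told apart between KO and WT E8.5 either.

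Hedgehog ligands bind PTCH1, which otherwise holds the membrane protein SMO inactive. Free SMO acts at the primary cilium to keep GLI2 and GLI3 from being processed into repressors, so that full-length GLI proteins activate transcription. Gli1, Ptch1 and Hhip are themselves induced by the pathway, and the level of Gli1 is widely used as its readout. At gastrulation Ihh is made by the visceral endoderm, and somewhat later Shh by the node, the notochord and the gut. Both ligands act in left-right patterning and heart looping, and Ihh acts in yolk sac vessel formation.

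The libraries held between 8198402 (KO1) and 12562640 (WT E8.5) counts. Ddx6 had 2943 reads in WT E7.5, 5715 in WT E8.5, 706 in KO1 and 929 in KO2. The libraries also differed in tissue of other origin. The summed level of 5 trophoblast markers was 99.5 CPM, the reads of a gene scaled to a fixed library size, in WT E7.5, 1.14 in WT E8.5, 2.50 in KO1 and 461 in KO2. Of these, Tpbpa was at 0 in all 4 libraries. The 4 markers of maternal decidua summed to 123, 6.67, 14.1 and 122 CPM in the same order. Both sums were thus higher in WT E7.5 and KO2 than in WT E8.5 and KO1. The decidual sum rested almost wholly on Prl8a2, with 111, 2.12, 7.62 and 118 CPM, whereas Dcn and Lum were lower in WT E7.5 and KO2 than in the other pair. The trophoblast sum rested on Elf5 and Ascl2 in WT E7.5 and on Prl3d1 and Prl2c2 in KO2. The part of these transcripts in the values below was not tested. In whole embryos, fewer cells of a type and less RNA per cell cannot be told apart.

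All 9 genes were lower in KO2 than in KO1 beyond counting error, where 19.0% of all genes kept were. Gli1 and Ptch1 were below WT E8.5 in both KO libraries beyond counting error, or 2 of 9. Of all genes kept 15.8% were, a share near that of the 9. Gli1 and Ptch1 are induced by the pathway, as is Hhip, whose counting interval in KO1 spanned 0. None of the 9 reached the log2 change of -1 that was used as the threshold in both KO libraries. Against WT E7.5, in contrast, Ptch1, Gli3 and Hhip were higher past the threshold in both, where 6.91% of all genes kept were. Ihh had the opposite course, with its highest level in WT E7.5.

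**Figure D1:**
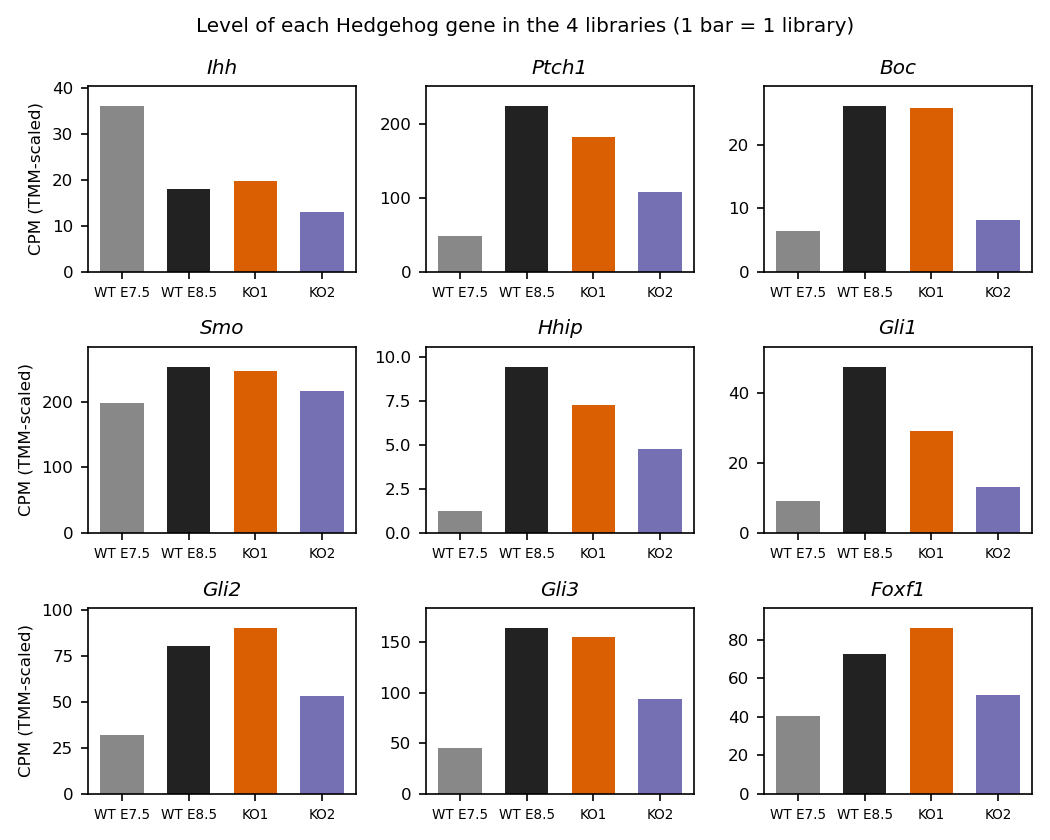
Level of each Hedgehog gene in each library in CPM scaled with TMM factors, as 1 bar per library with its own axis from 0. WT E8.5 had the highest bar for Ptch1, Gli1, Gli3, Hhip, Smo and Boc, KO1 for Gli2 and Foxf1, and WT E7.5 for Ihh, and KO2 was below KO1 for all 9 genes.

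Ihh (chromosome 1, 74945315 to 74951672, minus strand, GRCm38) encodes the ligand Indian hedgehog. It had 430 reads in WT E7.5, 223 in WT E8.5, 166 in KO1 and 159 in KO2. These were levels of 36.2, 18.1, 19.8 and 13 CPM. WT E7.5 stood above the other 3 libraries, and KO1 and WT E8.5 lay close together. The log2 change against WT E8.5 was 0.12 in KO1 (95% counting interval -0.18 to 0.42) and -0.47 in KO2 (-0.78 to -0.18). Against WT E7.5 it was -0.87 in KO1 and -1.46 in KO2. Visceral endoderm, a source of Ihh, was represented by 8 marker genes whose summed level was 6900 CPM in WT E7.5, 7180 in WT E8.5, 4280 in KO1 and 4080 in KO2. Apob and Cubn had 3110 and 2190 CPM of the sum in WT E8.5. Of the 8 markers 6 were below WT E8.5 in both KO libraries by their counting intervals, where 15.8% of all genes kept were. Hnf4a was level with WT E8.5 in both, and Amn was below it in KO1 and above it in KO2. The part of the endoderm in the Ihh values was not tested.

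Shh, the other ligand of the early embryo, is not among the 9 genes but binds the same receptors. It had 10 reads in WT E7.5, 200 in WT E8.5, 162 in KO1 and 28 in KO2. Its log2 change against WT E8.5 was 0.24 in KO1 (-0.06 to 0.55) and -2.73 in KO2 (-3.45 to -2.25). Of the reads of Shh and Ihh together, Shh took 2.27% in WT E7.5 (exact binomial 95% interval 1.10 to 4.14), 47.3% in WT E8.5 (42.4 to 52.2), 49.4% in KO1 (43.9 to 54.9) and 15.0% in KO2 (10.2 to 20.9). The ligand mix in KO1 did not differ from that of WT E8.5 beyond counting error, and that of KO2 lay between the WT stages. Dhh, the third ligand gene, had 1, 1, 3 and 3 reads in WT E7.5, WT E8.5, KO1 and KO2 and was under the count minimum.

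Ptch1 (chromosome 13, 63508328 to 63573598, minus strand) encodes the ligand-binding receptor that represses SMO. It had 582 reads in WT E7.5, 2765 in WT E8.5, 1537 in KO1 and 1316 in KO2, or 48.9, 225, 183 and 108 CPM. The level in WT E8.5 was 4.58-fold that in WT E7.5, and both KO libraries lay between them. Against WT E8.5 the log2 change was -0.30 in KO1 (-0.39 to -0.21) and -1.06 in KO2 (-1.15 to -0.96), with a mean of -0.68 ± 0.54 (SD, n = 2). Against WT E7.5 it was 1.9 and 1.14. KO2 differed from KO1 by -0.76 on this scale, a larger step than the mean change from WT E8.5.

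Boc (chromosome 16, 44485049 to 44558897, minus strand) encodes a co-receptor that helps PTCH1 bind ligand. It had 76 reads in WT E7.5, 321 in WT E8.5, 216 in KO1 and 99 in KO2, or 6.39, 26.1, 25.7 and 8.12 CPM. KO1 was level with WT E8.5, and KO2 was near WT E7.5. The log2 change against WT E8.5 was -0.02 in KO1 (-0.28 to 0.23) and -1.66 in KO2 (-2.02 to -1.36), and against WT E7.5 that of KO2 was 0.34 (-0.10 to 0.80). Boc had the widest spread between the KO libraries of the 9 genes, with an SD of 1.16.

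Smo (chromosome 6, 29735503 to 29761365, plus strand) encodes the transducer downstream of PTCH1. It had 2352 reads in WT E7.5, 3115 in WT E8.5, 2075 in KO1 and 2638 in KO2. Its levels of 198, 253, 247 and 216 CPM varied least among the 9 genes. The log2 change against WT E8.5 was -0.04 in KO1 (-0.12 to 0.04) and -0.23 in KO2 (-0.30 to -0.15). Hhip (chromosome 8, 79965851 to 80058006, minus strand), which encodes a membrane protein that binds and sequesters ligand, was the least abundant. It had 15, 116, 61 and 58 reads in WT E7.5, WT E8.5, KO1 and KO2, or 1.26, 9.44, 7.26 and 4.76 CPM. WT E7.5 was far below the other libraries, and the KO libraries lay between the WT stages. The log2 change against WT E8.5 was -0.37 in KO1 (-0.85 to 0.08) and -0.96 in KO2 (-1.47 to -0.52), and against WT E7.5 it was 2.37 and 1.78.

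Gli1 (chromosome 10, 127329882 to 127341974, minus strand) encodes the GLI protein that acts as an activator alone. It had 109 reads in WT E7.5, 583 in WT E8.5, 244 in KO1 and 158 in KO2, or 9.16, 47.4, 29.1 and 13 CPM. The 4 libraries were well separated, with KO1 and KO2 between the WT stages and KO2 nearer to WT E7.5. The log2 change against WT E8.5 was -0.70 in KO1 (-0.93 to -0.49) and -1.86 in KO2 (-2.13 to -1.62), a level 1.63-fold and 3.62-fold lower. The mean of -1.28 ± 0.82 (SD, n = 2) was the lowest of the 9 genes. Against WT E7.5 the changes were 1.65 and 0.49.

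Gli2 (chromosome 1, 118834132 to 119053619, minus strand), the main activator upstream of Gli1, had 381 reads in WT E7.5, 987 in WT E8.5, 758 in KO1 and 651 in KO2, or 32.0, 80.3, 90.3 and 53.4 CPM. KO1 was slightly above WT E8.5 and KO2 below it, with log2 changes of 0.17 (0.03 to 0.31) and -0.59 (-0.73 to -0.44). Gli3 (chromosome 13, 15463235 to 15730026, plus strand), the main repressor, had 539, 2021, 1301 and 1144 reads, or 45.3, 164, 155 and 93.9 CPM. KO1 was level with WT E8.5, with a change of -0.09 (-0.19 to 0.02), and KO2 was at -0.81 (-0.91 to -0.70). Against WT E7.5 the changes were 1.49 and 0.73 for Gli2 and 1.77 and 1.05 for Gli3.

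Foxf1 (chromosome 8, 121084386 to 121088144, plus strand) encodes a forkhead factor of the lateral plate and extraembryonic mesoderm that Hedgehog signals induce. It had 479 reads in WT E7.5, 895 in WT E8.5, 724 in KO1 and 628 in KO2, or 40.3, 72.8, 86.2 and 51.5 CPM. KO1 was the highest library and KO2 lay between the WT stages. The log2 change against WT E8.5 was 0.24 in KO1 (0.10 to 0.39) and -0.50 in KO2 (-0.65 to -0.35), so that the mean of -0.13 ± 0.52 (SD, n = 2) hid opposite directions. Of the 5 markers of the same mesoderm, Hand1 had changes of 1.22 and 0.87 and Tbx4 of -3.25 and -6.79, and their summed level was 326, 422, 676 and 476 CPM in WT E7.5, WT E8.5, KO1 and KO2. The summed level was thus also highest in KO1, where Hand1 alone had 422 of the 676 CPM. In KO2 the sum was above that of WT E8.5, whereas Foxf1 was below its WT E8.5 level. Hand1 and Tbx4 were picked after their values were seen, and the part of this mesoderm in the Foxf1 value was not tested.

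**Figure D2:**
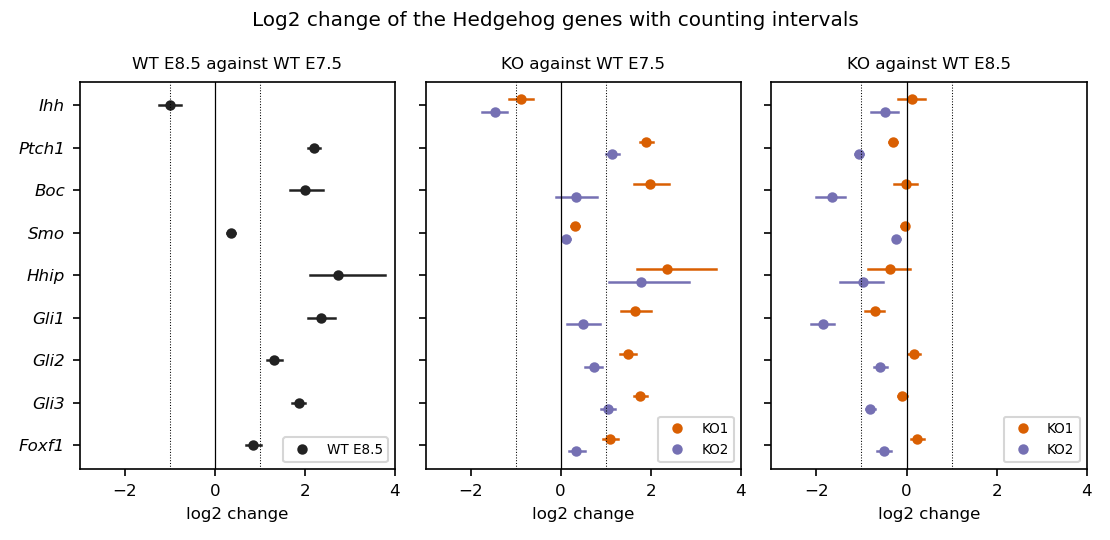
Log2 change of each gene (points) with its 95% counting interval (lines) for WT E8.5 against WT E7.5, for each KO library against WT E7.5 and for each against WT E8.5, with dotted lines at 1 and -1. KO2 lies to the left of KO1 for every gene. Against WT E8.5 Gli1 and Ptch1 are the genes whose intervals are below 0 in both KO libraries, as for 15.8% of all genes kept.

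Between the WT stages, 6 of the 9 genes were higher at E8.5 by more than 1 on the log2 scale, where 12.2% of all genes kept were. These were Ptch1 (2.20), Gli1 (2.35), Gli2 (1.32), Gli3 (1.86), Hhip (2.74) and Boc (2.0). Foxf1 (0.85) and Smo (0.36) were higher by less, and Ihh was lower (-0.99). The median of the 9 genes was 1.86, beside -0.02 over all genes kept. With 1 library per stage, these differences have no replicate check.

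Against WT E8.5, 0 of 9 genes passed the threshold in KO1, where 3.31% of all genes kept were lower past it. In KO2 the genes Ptch1, Gli1 and Boc did, or 3 of 9, where 5.91% were lower. In both KO libraries together 0 of 9 did, where 1.79% of all genes were lower in both and 3.44% higher in both. The counting interval was below 0 in KO2 for 9 of 9 genes (27.6% of all genes kept). In both KO libraries it was for 2 of 9, Ptch1 and Gli1, near the share of all genes (15.8%). The median change of the 9 genes was -0.04 in KO1 and -0.81 in KO2, where that of all genes was -0.01 and 0.00.

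The edgeR quasi-likelihood test with Benjamini-Hochberg adjustment over 14393 genes, with the spread taken from the 2 KO libraries alone, called 0 of 9 genes between KO and WT E8.5, as it called 0% of all genes. At an unadjusted p under 0.05 it also gave 0 of the 9, against 7.31% of all genes. Gli1 had the smallest adjusted p of the 9 in this edgeR test, 0.666, and both KO libraries were below WT E8.5. DESeq2 called 0 of the 9 and 0.215% of all genes, and each of the 9 had an adjusted p of 1.0. The smallest adjusted p over all genes in the edgeR test was 0.0839, and that of Ddx6 itself was 0.196.

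Against WT E7.5, 3 of 9 genes were higher past the threshold in both KO libraries, namely Ptch1, Gli3 and Hhip, where 6.91% of all genes kept were. Taken alone, KO1 had 7 such genes, all but Smo and Ihh, beside 13.2% of all genes. The counting interval was above 0 in both KO libraries for 7 of 9 genes, beside 26.0% of all genes. The exceptions were Ihh, which was below 0 in both, and Boc, whose interval in KO2 spanned 0. The edgeR test called 0 of 9 genes after adjustment, as it called 0% of all genes. At an unadjusted p under 0.05 it gave 5 of 9 (Ptch1, Gli2, Gli3, Hhip and Ihh), beside 24.4% of all genes. The smallest adjusted p of the 9 with edgeR was 0.142, for Ptch1, which was higher in 2 of 2 KO libraries. DESeq2 called Ptch1 (adjusted p 0.000442) and Gli3 (adjusted p 0.0021), or 2 of 9, beside 6.43% of the 11323 genes to which it gave an adjusted p. The comparisons with WT E8.5 and WT E7.5 share the KO libraries and are not independent of each other.

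Placed on the log2 distance from WT E7.5 (0%) to WT E8.5 (100%), Gli1 stood at 70.0% in KO1 and 21.0% in KO2, and Ptch1 at 86.5% and 51.9%. Hhip stood at 86.5% and 64.9%, Gli3 at 95.4% and 56.5%, Smo at 89.8% and 36.5%, and Boc at 98.9% and 16.9%. By point values these 6 genes lay between the WT libraries in both KO libraries, as 26.3% of all genes kept did. That share covers all genes, whatever their distance between the WT stages, and genes of like distance were not compared. The counting interval of KO1 against WT E8.5 spanned 0 for Gli3, Hhip, Smo and Boc. That of KO2 against WT E7.5 spanned 0 for Boc. Gli2 and Foxf1 passed the E8.5 level in KO1, at 113% and 129%, and lay at 55.6% and 41.6% in KO2. Ihh, which declined with stage, was at 87.6% in KO1 and at 148% in KO2, below WT E8.5.

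KO2 was below KO1 for all 9 genes, with counting intervals below 0 for 9 of 9, where 19.0% of all genes kept had such an interval. The threshold was passed by Boc (-1.64) and Gli1 (-1.15), 2 of 9, where 4.89% of all genes passed it in this direction. The other differences ranged from -0.19 for Smo to -0.76 for Ptch1. Markers of paraxial mesoderm, a tissue that receives Hedgehog signals, had a summed level of 109 CPM in KO1 and 29.6 in KO2, and 81.6 in WT E7.5 and 106 in WT E8.5. Neural plate markers summed to 211 CPM in KO1 and 327 in KO2, and to 211 in WT E7.5 and 296 in WT E8.5. Node and notochord markers summed to 212 in KO1 and 279 in KO2, and to 469 in WT E7.5 and 140 in WT E8.5. In KO2, Otx2 alone had 169 CPM of the neural plate sum and T 122 CPM of the node and notochord sum. Of the 6 paraxial markers 5 were lower in KO2 past the threshold and 0 higher, and of the 6 neural plate markers 3 were lower and 1 higher, so that the latter had a higher sum but a median change of -0.85. Among the 7 node and notochord markers 1 was lower and 1 higher, with a median of 0.66. The part of these tissues in the difference was not tested.

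Shares of reads inside a library do not depend on how libraries were scaled, and were chosen for display after the values above were seen. Gli1 took 10.6% of the reads of Gli1, Gli2 and Gli3 in WT E7.5 (exact binomial 95% interval 8.78 to 12.6), 16.2% in WT E8.5 (15.0 to 17.5), 10.6% in KO1 (9.37 to 11.9) and 8.09% in KO2 (6.92 to 9.39). Both KO libraries were thus below WT E8.5 and overlapped WT E7.5. The share of Gli3 was 52.4% in WT E7.5, 56.3% in WT E8.5, 56.5% in KO1 and 58.6% in KO2. Ptch1 took 19.8% of the reads of Ptch1 and Smo in WT E7.5 (18.4 to 21.3), 47.0% in WT E8.5 (45.7 to 48.3), 42.6% in KO1 (40.9 to 44.2) and 33.3% in KO2 (31.8 to 34.8). For this pair both KO libraries lay between the WT stages, with no overlap of the intervals. The intervals cover counting error only, as PCR copies of 1 molecule cannot be recognised in these reads.

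**Figure D3:**
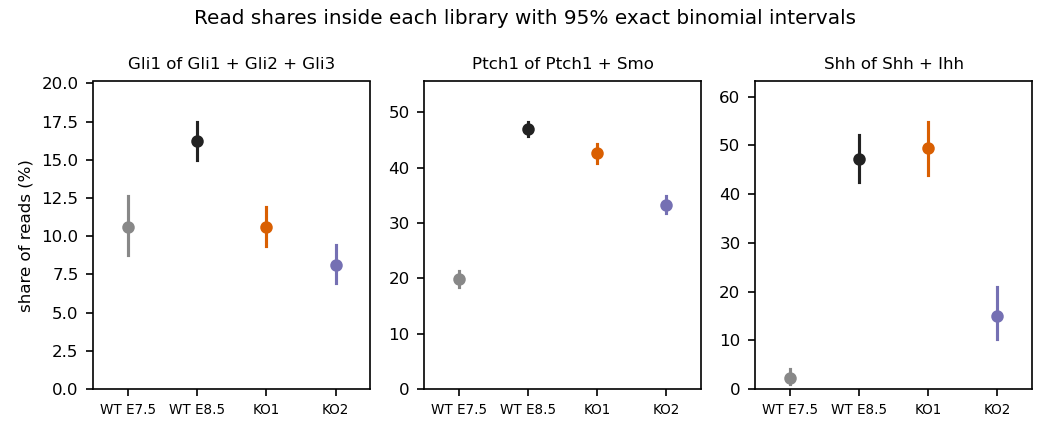
Share of reads in percent inside each library for Gli1 among the 3 Gli genes, Ptch1 among Ptch1 and Smo, and Shh among Shh and Ihh, as points with 95% exact binomial intervals. The Gli1 share of KO1 (10.6%) and KO2 (8.09%) lies below that of WT E8.5 (16.2%), and the Shh share of KO1 (49.4%) is level with WT E8.5 (47.3%) whereas that of KO2 is 15.0%.

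Levels of different genes were compared as CPM per kilobase of exon. Smo was the most abundant of the 9 genes in every library, with 52.3 in WT E7.5, 67.1 in WT E8.5, 65.4 in KO1 and 57.3 in KO2, followed by Foxf1 with 16.7, 30.2, 35.7 and 21.3. In both KO libraries the order was Smo, Foxf1, Ptch1, Gli3, Gli2, Ihh, Gli1, Boc and Hhip. In WT E8.5, Gli1 stood above Ihh, with 11.7 and 7.35 CPM per kilobase, and in both KO libraries Ihh stood above Gli1, with 8.01 and 7.16 in KO1 and 5.29 and 3.20 in KO2. In WT E7.5 the order of these was the same as in the KO libraries, with Ihh at 14.6 and Gli1 at 2.26. Some neighbours did not differ beyond counting error. Their intervals overlapped for Ihh and Gli1 and for Gli1 and Boc in KO1, for Foxf1 and Ptch1, Gli2 and Gli1, and Ihh and Boc in WT E8.5, and for Foxf1 and Ihh, Ptch1 and Gli3, and Gli3 and Gli2 in WT E7.5.

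The rest of the pathway was read from lists of 53 genes, of which 48 passed the count minimum. Against WT E8.5, 0 of the 48 passed the threshold in both KO libraries in either direction. Against WT E7.5 4 did, all of them higher, where 6.91% of all genes kept were higher in both, a share near that of the lists. They were Shh (4.26 in KO1 and 1.28 in KO2), Gpr161 (1.89 and 1.63), which encodes a ciliary receptor that restrains the pathway, Dync2h1 (1.45 and 1.22), a motor of the cilium, and Ccnd2 (2.01 and 1.32), a cyclin. The edgeR test called 0 of the 48 after adjustment in either comparison. DESeq2 called 3 of them against WT E7.5, with adjusted p-values of 0.0376 for Shh, 0.0208 for Dync2h1 and 1.07e-06 for Ccnd2. It called 6.43% of the genes to which it gave an adjusted p, again a share near that of the lists. Some of the 48 had no adjusted p in that comparison. Against WT E8.5 it called 0 of them, where it called 0.215% of all genes.

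Among the receptors, the co-receptor gene Cdon had a log2 change against WT E8.5 of 0.07 in KO1 and -0.71 in KO2. Gas1, which encodes a further co-receptor, was close to 0 in both (-0.05 and -0.06). The intracellular regulators Sufu, which binds and restrains the GLI proteins, and Kif7, a ciliary kinesin, had changes of -0.06 and -0.34 and of 0.11 and 0.23. The medians of the 16 intracellular regulators were 0.03 in KO1 and -0.06 in KO2, and those of the 10 cilium genes 0.11 and -0.10. These medians lay near that of all genes, and single genes departed from it, such as Stk36 with 0.98 and 0.51 and Btrc with 0.54 and 0.70, both picked after their values were seen.

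Genes that Hedgehog signals regulate elsewhere in the embryo showed the larger differences. The 12 of 16 listed that passed the count minimum had a median change against WT E8.5 of -0.44 in KO1 and -1.61 in KO2, and 6 genes of ligand processing and release had 0.22 and -1.16. In KO2, 7 of the 12 were lower past the threshold and 0 higher, beside the 5.91% of all genes that were lower. Among them, Foxf2, a paralog of Foxf1, had 17 reads in WT E7.5, 107 in WT E8.5, 43 in KO1 and 20 in KO2. Nkx6-1, a factor of the ventral neural tube, had 12, 78, 30 and 12 reads, and Pax9, a factor of sclerotome and pharyngeal endoderm, had 3, 99, 48 and 5. KO2 was near WT E7.5 for these 3 genes, and KO1 lay between the WT stages by point values. For Pax9 the counting interval of KO1 against WT E8.5 spanned 0 (-1.02 to 0.02). Of the 12 genes, 4 lay between the WT libraries in both KO libraries, where 26.3% of all genes kept did. The 3 genes named therefore do not stand for the list. Foxf2 had changes of -0.75 in KO1 (-1.31 to -0.24) and -2.29 in KO2 (-3.17 to -1.71). Foxf2, Nkx6-1 and Pax9 were chosen for mention after their values were seen.

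**Figure D4:**
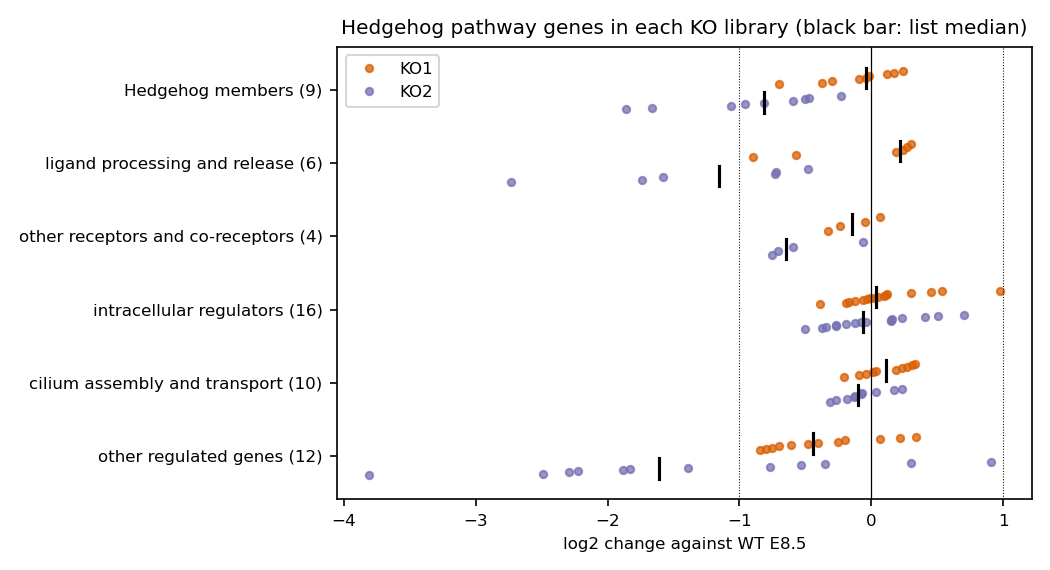
Log2 change against WT E8.5 in KO1 and KO2 for each gene kept (points) of the Hedgehog set and of 5 further lists of the pathway, with list medians as black bars, gene numbers in brackets and dotted lines at 1 and -1. The medians of regulators and cilium genes lie near 0 in both libraries, whereas ligand, target and Hedgehog set genes of KO2 spread to lower values.

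Genes with the most similar course over the 4 libraries were sought by the Euclidean distance between log2 CPM values centred on each gene's mean, among 11221 other genes that averaged 50 counts or more. For Gli1 the nearest were Vash1 (0.14) and Isl1 (0.17), for Ptch1 Epha7 (0.14) and Acvrl1 (0.15), for Boc Plxnd1 (0.14) and Ecscr (0.18), and for Hhip Sobp (0.21) and Ryr2 (0.25). The number of genes within 0.5 was 36 for Gli1, 99 for Ptch1, 40 for Boc and 27 for Hhip. Smo had 4770 within that distance, nearest Gosr2 (0.01) and Ss18l1 (0.03), so that its course was shared by many genes. For Gli2 the nearest were Tgfb1 and Homer3 (both 0.10), for Gli3 Ephb2 (0.11) and Kdr (0.14), for Ihh Klhl13 (0.16) and Sh3tc2 (0.17), and for Foxf1 Lsp1 (0.08) and 9530068E07Rik (0.11). A course of 4 values is matched by many genes, and these neighbours are a description only.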

How the data were processed

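The deposited table holds raw counts of reads per gene, made by the authors with no normalization. Per the labels and the study's methods, stranded mRNA libraries were trimmed with cutadapt 2.8, aligned to mm10 with HISAT2 2.1.0 and counted over exons by strand with featureCounts 2.0.0. Here, TMM factors (0.983 in WT E7.5, 0.978 in WT E8.5, 1.02 in KO1 and 1.01 in KO2) were computed over all genes with edgeR 4.0.16 in R 4.3.3. Genes with at least 10 counts in 1 library were kept. Log2 changes are differences of log2 CPM with a prior count of 2, and the threshold is 1 in either direction. Counting intervals are exact binomial 95% intervals of the reads of 2 libraries. They do not cover biological spread, and each WT stage had 1 library.

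The two-sided edgeR quasi-likelihood test and DESeq2 1.42.0 used all 4 libraries in 3 groups, adjusted over all genes. The spread comes from the KO libraries alone, and the WT libraries are assumed to vary alike. The scripts were tested on simulated data. Exon lengths and positions came from GENCODE M21 (GRCm38, the assembly of mm10), whose gene models may differ from the authors'. On the same strand, Boc overlaps the counted microRNA gene Mir3081. The named genes are the 9 genes, Shh, Dhh, Cdon, Gas1, Sufu, Kif7, list genes that passed the threshold in both KO libraries, and for each of the 9 genes the 2 most similar in course. Foxf2, Nkx6-1, Pax9, Foxa2, Mycn, Stk36, Btrc and single marker genes were named outside this rule, after their values were seen. The members and lists were chosen with earlier results of these data known. The alternatives tried were scaling by DESeq2's size factors or by library total, filtering on 50 counts or not at all, a prior count of 0.5, a log2 threshold of 2, and each KO library alone. Figures were drawn with matplotlib 3.10.9. A gene of the lists that the rule also names is not reported here.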

Additional observations from a re-analysis of the deposited data

How the results depend on the processing

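Of 101 values recomputed under alternatives, 92 kept their direction and stayed within the KO spread (SD) or, for counts of genes, within 1.5 times, and 6 counts moved further. The other 3 are changes against WT E8.5 that turned from negative to positive without KO2. They went to 0.17 for Gli2, 0.12 for Ihh and 0.24 for Foxf1, none of them past the threshold. Part of the 92 was fixed in advance. TMM factors were computed before the filter. The filter settings could therefore not alter log2 changes of the 9 genes or their counts past the threshold. The 92 is thus no measure of stability. With no filter the edgeR test against WT E7.5 called 2 of 9 genes, Ptch1 and Gli3 (smallest adjusted p 0.0433), beside 3.95% of all genes, and DESeq2 called 2, the same genes, where edgeR with the filter called 0. The cause of the first was not tested. A threshold of 2 left 0 genes past it against WT E7.5 in both KO libraries and 0 between KO1 and KO2. A higher threshold can lower such counts but not raise them. Without KO1, 3 genes (Ptch1, Gli1 and Boc) passed the threshold against WT E8.5 and 4 against WT E7.5 (Ptch1, Gli3, Hhip and, lower, Ihh), beside 15.3% and 14.9% of all genes in either direction. Without KO2, 0 and 7 did (8.28% and 20.6% of all genes), so the counts range from 0 to 3 and from 4 to 7. A mean of 2 libraries cannot move by more than their SD when 1 is dropped, so the means without 1 library carry no information on stability. With DESeq2 size factors Ihh also passed the threshold between the WT stages. The median of all genes in KO2 against WT E7.5 was 0.115 with plain CPM and 0.07 with TMM. Hhip, with 15 reads in WT E7.5, is the value most limited by depth. No paired analysis was possible because only the KO libraries carry replicate numbers.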

Other observations

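The consensus binding sequence of the GLI proteins, GACCACCCA, was searched on both strands of the promoters in RefSeq (GRCm38.p6, from 250 bases before to 50 after the start). Of 32851 promoters, 83 (0.253%) held it. Promoters were matched for 6 of the 9 genes (Ihh, Gli2, Smo, Hhip, Gli3 and Ptch1), and 0 of these held it. This says only that these letters are not in these windows.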
